A study of Homo sapiens with 32 samples.

Results

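Of the genes of the insulin and insulin-like growth factor (IGF) receptor axis, *IGF1R* rose most and *GRB10* fell most after R1881 in LNCaP cells. The 10 genes followed here were the receptor genes *IGF1R*, *INSR* and *IGF2R*, the substrate genes *IRS1* and *IRS2*, the binding protein genes *IGFBP2*, *IGFBP3* and *IGFBP5*, and the adaptor genes *GRB10* and *GRB14*. They were taken by gene symbol, as named members of the axis. No measured value entered that rule, but the members were chosen with earlier results of these data known. Gene-level transcript clusters, each of which pools the probes of a gene, covered them with 11 of the 16309 clusters of the table. Exon-level probe sets, each of which reads a stretch of the gene, covered them with 233 of 620335 probe sets, and 257184 of all probe sets carried a single gene symbol. The single symbols of the clusters named 13345 genes.

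Insulin and the IGFs bind receptor tyrosine kinases at the cell surface. The activated receptors phosphorylate insulin receptor substrates, which recruit phosphoinositide 3-kinase and so pass the signal on to AKT and growth. Adaptors of the GRB10 family bind the activated kinases and dampen them, and binding proteins hold IGFs outside the cell and set how much ligand reaches the receptor. In the prostate this axis is known as a growth and survival pathway alongside androgen signalling.

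LNCaP is an established androgen-responsive human prostate cancer cell line, and both groups were the same line. The cells spent 72 hours in medium with charcoal-stripped serum, which is devoid of steroids. In 4 samples 10 nM R1881, a synthetic androgen, was then added for 24 hours, and 4 samples had no androgen (steroid-deplete). The methods give both groups the further 24 hours, but the labels can be read as controls taken at 72 hours, and in that case treatment and time in culture cannot be told apart. RNA reduced in ribosomal RNA was hybridised to 8 exon arrays. The methods speak of quadruplicate experiments, but the labels do not say that the samples came from separate cultures, so p-values measure the spread between these samples, and the number of arrays limits the precision.

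All gene-level values below are log2 values made by Robust Multichip Analysis (RMA) unless another summary is named. Array medians ranged from 6.22 to 6.31 after R1881 and from 6.33 to 6.4 in steroid-deplete medium. On the second principal component, with 8.27% of the variance, R1881 replicate 4 (17.6) and steroid-deplete replicate 1 (13.5) lay apart from the other 6 arrays (-12.5 to 0.0134). *KLK3*, which encodes prostate specific antigen, served as the check of the androgen response and averaged 12.24 ± 0.07 after R1881 and 10.41 ± 0.09 in steroid-deplete medium (SD, n = 4 each). Of 9 markers of LNCaP cells, 4 had a cluster with a single symbol, with mean levels from 11.13 to 12.24 after R1881 and from 8.66 to 11.58 in steroid-deplete medium, and the others were not analysed here. Of 10 markers of basal, stromal and blood cells, 6 were measured and limma called none at 2-fold, with log2 fold changes between -0.01 and 0.35, while all 3 basal markers were not analysed here. The macrophage marker *CD68* was higher, with 7.12 ± 0.05 after R1881 and 6.77 ± 0.12 in steroid-deplete medium (SD, n = 4 each, log2 fold change 0.35, adjusted p = 0.0049, limma), whereas *PTPRC*, which marks all white blood cells, averaged 2.26 and 2.27. The part of *CD68*-expressing cells in the results was not tested.

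Calls required a change of at least 2-fold with an adjusted p below 0.005, by limma with Benjamini-Hochberg adjustment over all 16309 clusters, and higher or lower is used below for an adjusted p under 0.05 with no limit on the fold. Of the 10 genes, 1 was called higher (*IGF1R*) and 1 was called lower (*GRB10*). Over all clusters, 1.94% were called higher and 2.04% were called lower. At an adjusted p under 0.05, 4 genes were higher and 3 were lower, against 10.5% and 19.8% of all clusters, and 3 did not pass. The arrays of the 2 treatments did not overlap in 7 of the 10 genes (4 higher and 3 lower), against 29.8% of all clusters in either direction. The median log2 fold change of the 10 genes was 0.16, against -0.003 for all clusters. In RNA from whole cultures, fewer cells that express a gene and less RNA of it per cell cannot be told apart.

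**Figure D1:**
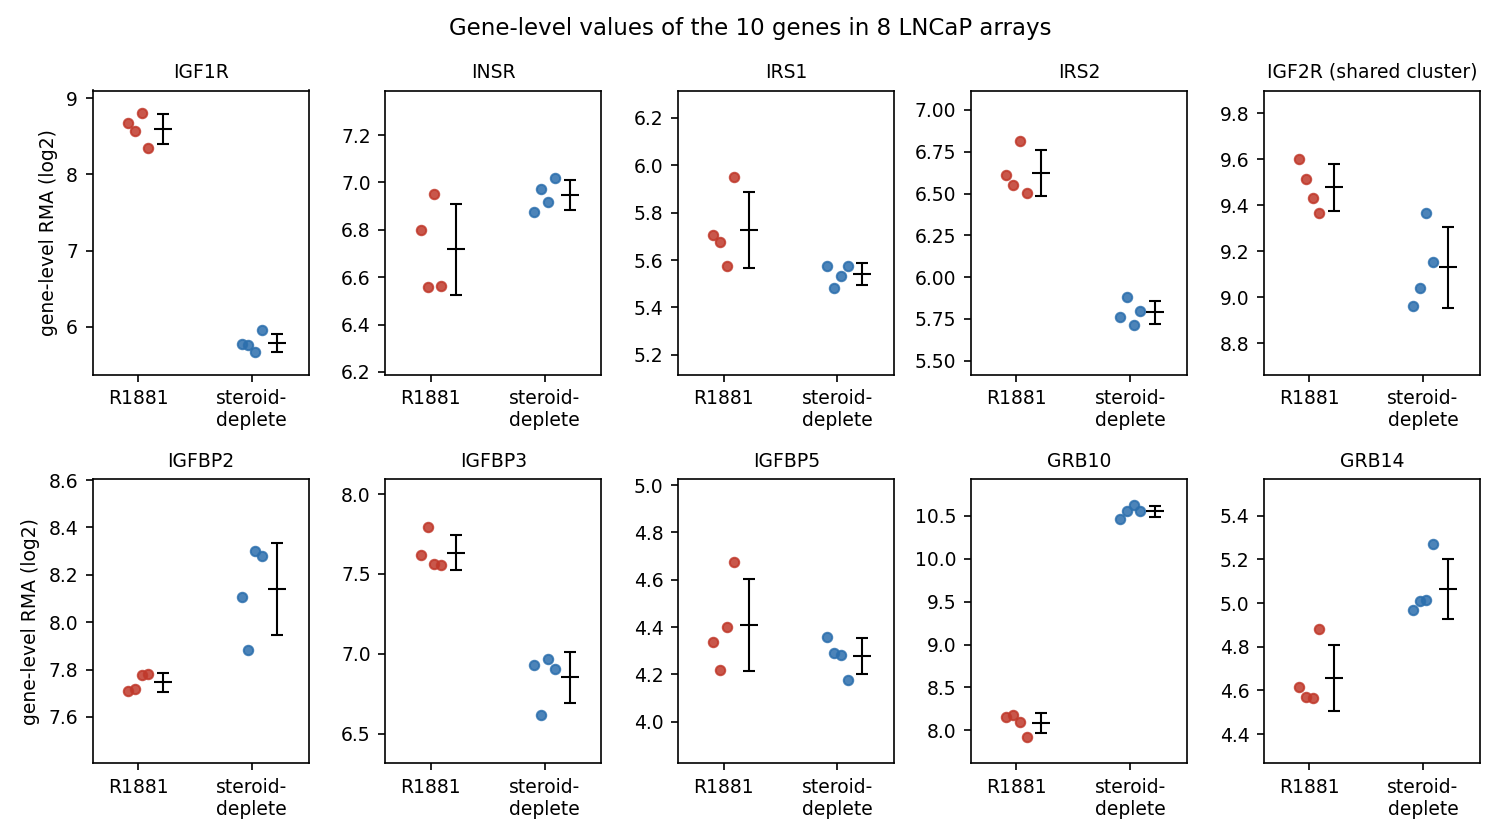
Gene-level RMA values (log2, vertical axis, a separate scale for each gene) of the 10 genes in 4 R1881 and 4 steroid-deplete arrays. Points are arrays, and the bar beside them is the mean with the SD. The groups lie far apart for IGF1R and GRB10, and they overlap for INSR, IGF2R and IGFBP5.

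Among the receptors, *IGF1R* encodes the main receptor kinase for IGF1 and IGF2. Its level was 8.67, 8.56, 8.80 and 8.35 in R1881 replicates 1 to 4, against 5.77, 5.76, 5.67 and 5.95 in steroid-deplete replicates 1 to 4. Every R1881 array lay more than 2 log2 units above every steroid-deplete array. With its standard error, the log2 fold change came to 2.81 ± 0.10 (adjusted p = 2.61e-10, limma), a 7.0-fold higher level, and errors of changes below are standard errors too. A further *IGF1R* cluster of lower signal read 7.02, 6.79, 7.32 and 6.47 after R1881, against 3.30, 3.94, 4.00 and 3.52 in steroid-deplete medium, and was called higher as well (log2 fold change 3.21 ± 0.18, adjusted p = 1.25e-08, limma).

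*INSR* encodes the insulin receptor, the closest relative of the IGF1 receptor among the members. It read 6.80, 6.56, 6.95 and 6.56 after R1881, against 6.88, 6.97, 6.92 and 7.02 in steroid-deplete medium. The groups overlapped, since R1881 replicate 3 lay within the steroid-deplete range. The log2 fold change of -0.23 ± 0.10 did not pass the test (adjusted p = 0.102, limma), but the gene was lower with Iter-PLIER, another summary of the same probes (log2 fold change -0.70 ± 0.19, adjusted p = 0.0105, limma), and without R1881 replicate 3 (-0.31, adjusted p = 0.0223, limma). The change of *IGF1R* exceeded that of *INSR* by 3.04 ± 0.06 on the log2 scale (exact two-sided permutation test, p = 0.0286, adjusted p = 0.0286 over 5 pairs of related genes). With 4 against 4 arrays, 0.0286 is the smallest p this test can give.

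*IGF2R* encodes the mannose 6-phosphate receptor, which takes up IGF2 for degradation and has no kinase. Its only cluster is also annotated to the pseudogene *CHP1P2*, so its gene-level values are shared. They were 9.60, 9.52, 9.43 and 9.36 after R1881, against 8.96, 9.04, 9.36 and 9.15 in steroid-deplete medium. R1881 replicate 4 and steroid-deplete replicate 3 met at the same level, and the other arrays were separate. The log2 fold change was 0.35 ± 0.10 (adjusted p = 0.0151, limma), and the call at 0.05 was lost without R1881 replicate 1 (0.31, adjusted p = 0.0527, limma).

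The insulin receptor substrates are docking proteins that the activated receptors phosphorylate. *IRS2* read 6.61, 6.55, 6.82 and 6.51 after R1881, against 5.76, 5.88, 5.72 and 5.80 in steroid-deplete medium. The groups were separated by more than their own range. The rise was 0.83 ± 0.09 on the log2 scale (adjusted p = 6.34e-06, limma), or 1.78-fold, which is under the limit of 2-fold. With Iter-PLIER the intensities were 261, 195, 241 and 216 after R1881, against 35.9, 44.4, 26.8 and 39.9 in steroid-deplete medium, and *IRS2* was called higher (2.21 ± 0.16 on the log2 scale of value plus 16). The size of the *IRS2* change therefore depended on the summary, while its direction did not.

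*IRS1*, the other widely expressed substrate gene, read 5.70, 5.68, 5.58 and 5.95 after R1881, against 5.58, 5.48, 5.53 and 5.57 in steroid-deplete medium. The groups touched without overlapping, and R1881 replicate 4 was the highest array. The log2 fold change of 0.19 ± 0.09 did not pass the test (adjusted p = 0.146, limma) and passed it at 0.05 after each array had been centred on its median (0.29, adjusted p = 0.0352, limma). The change of *IRS1* was smaller than that of *IRS2* by 0.65 ± 0.15 on the log2 scale (difference -0.65, exact permutation test, p = 0.0286, adjusted p = 0.0286).

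The binding proteins hold IGFs in the fluid around cells. *IGFBP3*, which encodes the main carrier of IGFs in serum, read 7.62, 7.79, 7.56 and 7.55 after R1881, against 6.93, 6.62, 6.97 and 6.90 in steroid-deplete medium. No R1881 array came within the steroid-deplete range. R1881 raised it by 0.78 ± 0.10 on the log2 scale (adjusted p = 2.88e-05, limma) with RMA and 1.46 ± 0.15 with Iter-PLIER, where the gene was called higher.

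*IGFBP2*, a binding protein gene with a higher affinity of its protein for IGF2 than for IGF1, went the other way. It read 7.71, 7.72, 7.78 and 7.78 after R1881, against 8.11, 7.88, 8.30 and 8.28 in steroid-deplete medium. The R1881 arrays lay close together below all steroid-deplete arrays, of which replicate 2 was the lowest. Its log2 fold change was -0.40 ± 0.10 (adjusted p = 0.00639, limma), and -0.82 ± 0.15 with Iter-PLIER.

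*IGFBP5*, a binding protein gene known for its protein's hold on the extracellular matrix, had a low signal, with a mean below the lower quartile of all clusters. Its values were 4.34, 4.22, 4.40 and 4.67 after R1881, against 4.36, 4.29, 4.28 and 4.18 in steroid-deplete medium. The groups overlapped, and the log2 fold change of 0.13 ± 0.10 did not pass the test (adjusted p = 0.375, limma) and turned negative with Iter-PLIER (-0.12 ± 0.18). The change of *IGFBP3* exceeded that of *IGFBP5* by 0.65 ± 0.17, and the change of *IGFBP2* fell short of it (difference -0.53 ± 0.14). Both differences had p = 0.0286 in the exact permutation test (adjusted p = 0.0286).

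The adaptors GRB10 and GRB14 bind activated insulin and IGF receptors and inhibit their signalling. *GRB10* read 8.15, 8.18, 8.10 and 7.92 after R1881, against 10.47, 10.55, 10.63 and 10.56 in steroid-deplete medium. The ranges within each treatment were small beside the gap between them. This gave a log2 fold change of -2.47 ± 0.08 (adjusted p = 1.33e-10, limma), so that the level was 5.53-fold higher in steroid-deplete medium.

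*GRB14*, the related adaptor gene, had a low signal below the lower quartile of all clusters. It read 4.62, 4.57, 4.57 and 4.88 after R1881, against 4.97, 5.01, 5.02 and 5.27 in steroid-deplete medium. Replicate 4 was the highest array in each treatment, and the groups did not overlap. The log2 fold change was -0.41 ± 0.10 (adjusted p = 0.00591, limma) with RMA and -1.22 ± 0.16 with Iter-PLIER, where the gene was called lower. The fall of *GRB10* exceeded that of *GRB14* on the RMA scale (difference of changes -2.06 ± 0.15, exact permutation test, p = 0.0286, adjusted p = 0.0286).

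**Figure D2:**
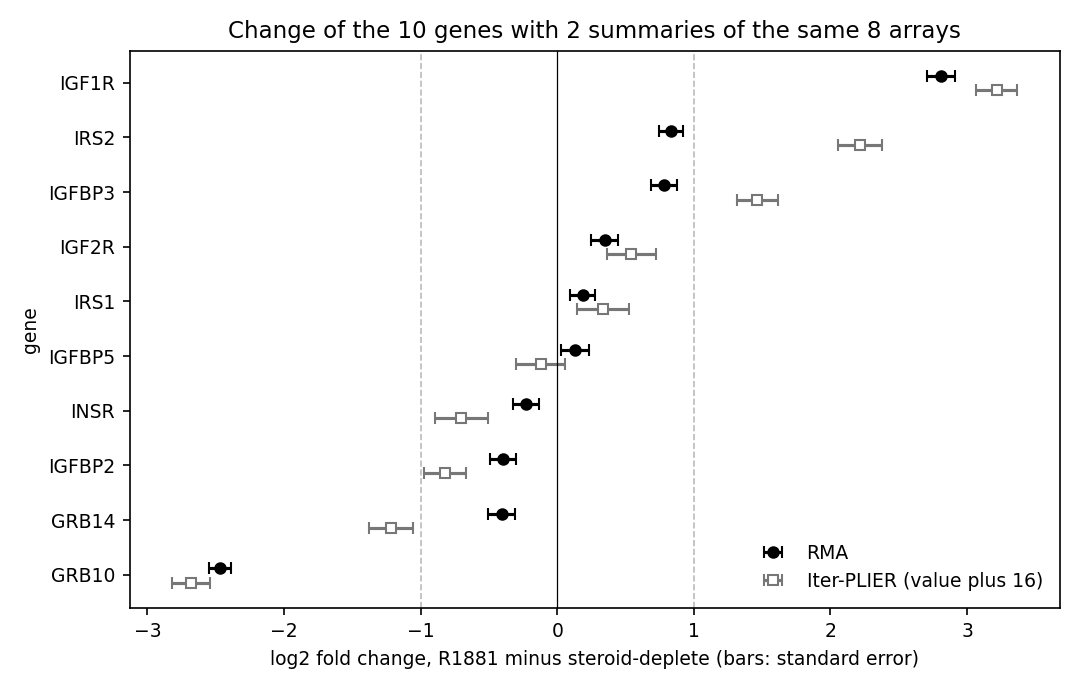
Log2 fold change of each gene (horizontal axis, R1881 minus steroid-deplete, bars are standard errors), with RMA (filled circles) and Iter-PLIER values plus 16 (open squares), and dashed lines at 2-fold. IGF1R (2.81) and GRB10 (-2.47) lie beyond 2-fold with both summaries, and IRS2, IGFBP3 and GRB14 only with Iter-PLIER.

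IGF1R and GRB10 therefore gave the same call with both summaries. They also kept it in all 18 alternatives tried for each. Without R1881 replicate 4 and steroid-deplete replicate 1, the arrays that lay apart, *IGF1R* changed by 2.88 and *GRB10* by -2.44 on the log2 scale.

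The promoter sequences of the genes are shown for the called members, and for *IGFBP2*, the only member with a match to the motif searched. In the RefSeq promoter table (GRCh38.p14), which spans 250 bases before to 50 bases after a start site, all 10 genes matched, with 17 start sites, 1 for *IGF1R*, 5 for *GRB10* and 3 for *IGFBP2*. The search was for AGAACA, the core hexamer bound by the androgen receptor, and its reverse complement TGTTCT on both strands, and for the full palindrome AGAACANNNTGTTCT, which contains both. The *IGF1R* promoter lies at chr15:98648289-98648588 on the plus strand, and the outermost of the *GRB10* promoters at chr7:50793404-50793703 on the minus strand. The outermost *IGFBP2* promoter lies at chr2:216632578-216632877 on the plus strand. Each is written in the direction of transcription with the hexamer in capitals.
IGF1R: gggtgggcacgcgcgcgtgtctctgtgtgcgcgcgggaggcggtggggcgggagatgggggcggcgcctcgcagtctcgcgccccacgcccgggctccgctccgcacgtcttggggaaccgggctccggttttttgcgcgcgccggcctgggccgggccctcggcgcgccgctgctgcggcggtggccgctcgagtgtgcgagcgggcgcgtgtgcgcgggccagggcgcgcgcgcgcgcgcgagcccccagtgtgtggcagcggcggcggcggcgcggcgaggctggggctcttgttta
GRB10: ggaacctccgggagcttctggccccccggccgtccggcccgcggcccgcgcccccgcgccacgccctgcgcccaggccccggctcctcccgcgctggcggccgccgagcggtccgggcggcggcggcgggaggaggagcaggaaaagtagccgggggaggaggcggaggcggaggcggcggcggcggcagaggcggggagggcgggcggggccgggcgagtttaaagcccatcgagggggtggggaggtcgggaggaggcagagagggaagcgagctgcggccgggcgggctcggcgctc
IGFBP2: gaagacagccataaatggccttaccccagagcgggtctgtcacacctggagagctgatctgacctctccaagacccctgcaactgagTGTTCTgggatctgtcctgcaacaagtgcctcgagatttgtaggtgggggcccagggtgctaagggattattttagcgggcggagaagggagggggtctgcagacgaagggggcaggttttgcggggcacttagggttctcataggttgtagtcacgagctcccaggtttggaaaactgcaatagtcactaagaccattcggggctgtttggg
The hexamer was absent from the *IGF1R* promoter and from all 5 *GRB10* promoters. It was present in 2 of the 17 promoters, both of *IGFBP2*, at positions 88 to 93 of the sequence shown and at positions 5 to 10 of the promoter at chr2:216659317-216659616. It was in 14.8% of all 35116 RefSeq promoters, and 1 promoter, of none of the 10 genes, held the full palindrome (0.00285%). The *IGF1R* promoter shown is 79.7% G and C, and the 5 *GRB10* promoters range from 33.7% to 81.7%. A missing match says only that these letters are not in these windows.

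The exon-level probe sets asked whether the whole gene moved with its cluster. Probe sets of a gene share the RNA and are no replicates of each other, and the files used here give no position for them, so they are named by identifier. By the same limits, with adjustment over all probe sets of the table, 35 of the 233 probe sets were called higher and 25 were called lower. Over all probe sets, 0.679% were called higher and 0.657% were called lower. The calls fell in 4 genes, with 30 of 38 probe sets higher in *IGF1R*, 25 of 28 lower in *GRB10*, 3 of 19 higher in *IRS2* and 2 of 11 higher in *IGFBP3*. Without R1881 replicate 4 and steroid-deplete replicate 1 the counts were 27, 20, 1 and 0.

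**Figure D3:**
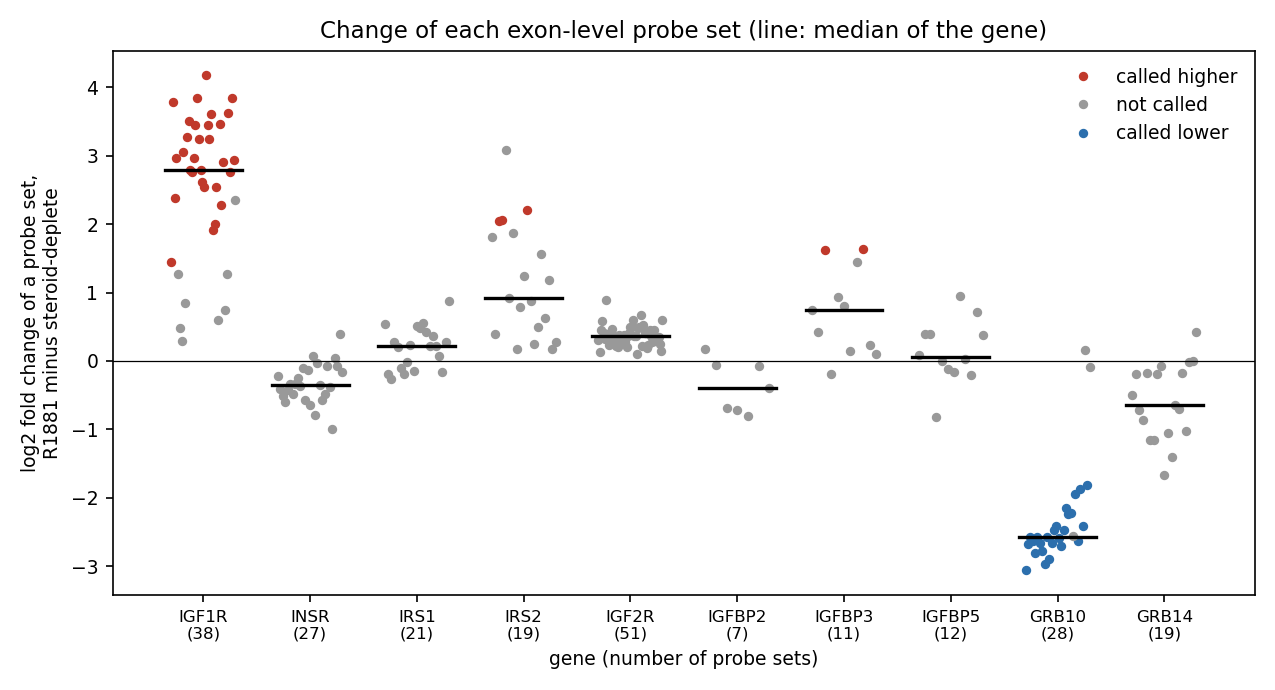
Log2 fold change (vertical axis, R1881 minus steroid-deplete, exon-level RMA values) of each probe set of the 10 genes, ordered by identifier within a gene, with the median as a line. Red points were called higher, blue points were called lower and grey points were not called. The medians lie at 2.79 for IGF1R and -2.57 for GRB10, and 2 GRB10 points lie near 0.

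All 38 *IGF1R* probe sets had a positive log2 fold change, from 0.30 to 4.17 with a median of 2.79. Probe set 3610880 gave the largest, with 8.12, 7.64, 8.30 and 7.03 after R1881, against 3.69, 3.68, 3.41 and 3.65 in steroid-deplete medium (4.17 ± 0.28, adjusted p = 2.37e-05, limma). Probe set 3610845 gave the smallest, 0.30 ± 0.44, at a low level in both treatments (means 4.37 after R1881 and 4.07 in steroid-deplete medium). At an adjusted p under 0.05, 32 of the 38 were higher and 6 did not pass (limma), and the share of all probe sets at that limit was not counted here. At an unadjusted p under 0.05, 36 of the 38 were higher (limma), against 15.6% of all probe sets in either direction.

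In *GRB10*, 27 of 28 probe sets had a negative log2 fold change, with a median of -2.57. Probe set 3050463 fell most, with 7.49, 7.68, 7.35 and 7.14 after R1881, against 10.41, 10.51, 10.59 and 10.37 in steroid-deplete medium (-3.06 ± 0.19, adjusted p = 1.87e-05, limma). A pair of probe sets stood out from the fall. Probe set 3050566 read 7.62, 7.52, 7.55 and 7.65 after R1881, against 7.59, 6.90, 7.58 and 7.60 in steroid-deplete medium (0.17 ± 0.21, adjusted p = 0.788, limma). Probe set 3050570 read 8.89, 8.87, 8.60 and 8.77 after R1881, against 8.72, 8.72, 8.94 and 9.10 in steroid-deplete medium (-0.09 ± 0.19, adjusted p = 0.887, limma). In both probe sets the treatments overlapped, at levels well above the array medians of the exon table (4.63 to 4.68 after R1881 and 4.69 to 4.73 in steroid-deplete medium).

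In the other genes fewer or no probe sets were called. In *IGF2R* all 51 probe sets were positive, from 0.10 to 0.89, and in *INSR* 24 of 27 were negative, from -1.0 to 0.39, with none called in either gene. At an unadjusted p under 0.05 (limma), 13 of 51 were higher in *IGF2R* and 8 of 27 were lower in *INSR*, against 15.6% of all probe sets in either direction. In *IRS2* all 19 were positive, and the largest change, of probe set 3525243, was 3.08 ± 0.50 (adjusted p = 0.00568, limma), with 6.93, 6.93, 6.79 and 6.34 after R1881, against widely spread values of 2.85, 5.38, 2.66 and 3.76 in steroid-deplete medium. In *GRB14* 18 of 19 were negative, from -1.66 to 0.43. *IRS1* (14 of 21 positive, -0.26 to 0.88), *IGFBP5* (7 of 12 positive, -0.82 to 0.95) and *IGFBP2* (6 of 7 negative, -0.80 to 0.18) had probe sets on both sides of 0. In *IGFBP3*, 10 of 11 were positive, up to 1.64 ± 0.23 for probe set 3049303 (adjusted p = 0.00247, limma).

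To see which probe sets moved differently from their gene, the gene value of each array was subtracted from the probe set value, and the difference was compared between treatments with limma. Of the 233 probe sets, 148 in 9 genes passed the filters on level and on distance from the gene, and *IGF2R* was left out because its cluster is shared. At p of 0.001 or less, 9 probe sets rose relative to their gene and 8 fell, together 17 of 148, against 1.79% of all probe sets tested. Of the 17, 13 were in *IGF1R* and *GRB10*, the genes with the largest changes. A limit of at most 2-fold on the change of the gene took *IGF1R* and *GRB10* out of the test. The calls in *IRS2*, *IGFBP3* and *GRB14* remained, 4 higher and 0 lower. The share of all probe sets called at that limit was not counted here.

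In *GRB10* the flat probe sets 3050566 and 3050570 rose relative to the gene by 2.63 ± 0.18 and 2.38 ± 0.13 on the log2 scale (adjusted p = 0.000446 and 0.000308, limma). With Iter-PLIER the differences were 3.02 and 2.60, and both passed the limit in each of the 13 alternatives that tested them. With RMA, 3050566 lay within 5-fold of the *GRB10* cluster only after R1881 (7.58 and 8.09), not in steroid-deplete medium (7.42 and 10.55). It met the filters only through R1881, where its relative value was high, so alternatives with the same filters give its rise no separate support. It also passed without the filters on level and distance. Probe set 3050570 lay within 5-fold in both treatments. Probe set 3050463 fell by 0.59 relative to *GRB10* and passed in only 1 of 13 alternatives. The relative rise of 3050570 thus did not depend on the summary or on a single array.

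In *IGF1R* 3 probe sets rose relative to the gene and 7 fell. The largest falls were in probe sets 3610844 (-2.33 ± 0.27), 3610903 (-2.21 ± 0.14) and 3610963 (-2.07 ± 0.19), with adjusted p of 0.00347, 0.000323 and 0.00128 (limma). Their steroid-deplete means (6.87, 7.52 and 6.56) lay above that of the *IGF1R* cluster (5.79). Whether this higher signal without androgen limited their rise was not tested. Probe set 3610903 read 8.27, 7.95, 8.17 and 8.08 after R1881, against 7.59, 7.51, 7.21 and 7.78 in steroid-deplete medium, so its own change was 0.60 ± 0.20. These 3 passed in every alternative that tested them, while 3610963 was not tested with Iter-PLIER. The 3 that rose relative to *IGF1R*, 3610880 (1.36 ± 0.19), 3610965 (0.81) and 3610887 (0.80), passed in 12, 5 and 8 of 13 alternatives. None of them passed with Iter-PLIER, and the first and second turned negative there (-0.18 and -0.06). Probe set 3610880 averaged 7.77 after R1881 and 3.61 in steroid-deplete medium, below the exon-level array medians there (4.69 to 4.73). It met the filters only through R1881, where it was high, so alternatives with the same filters give its rise no separate support. It also passed without the filters on level and distance. Probe sets 3610963 and 3610965 number after the further *IGF1R* cluster of lower signal, and in a comparison with that cluster, added after the values had been seen, their relative changes were -2.47 ± 0.31 (adjusted p = 0.00571, limma) and 0.41 ± 0.16 (adjusted p = 0.310, limma), so that 3610965 no longer passed.

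**Figure D4:**
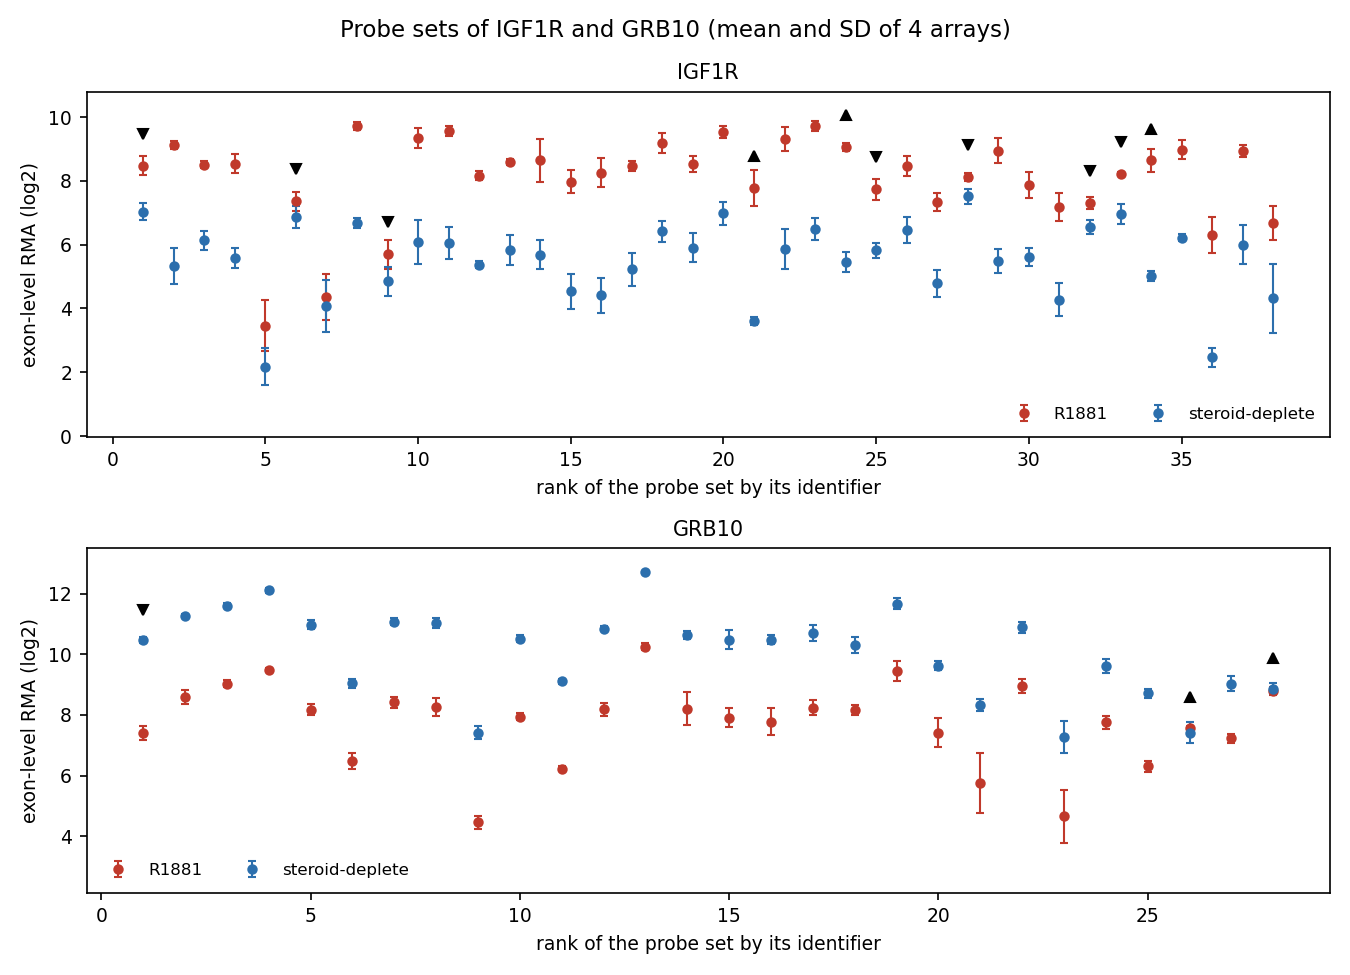
Exon-level RMA values (log2, vertical axis) of the IGF1R and GRB10 probe sets in the rank order of their identifiers (horizontal axis, not a genome position), as the mean and SD of 4 R1881 (red) and 4 steroid-deplete (blue) arrays. Triangles mark probe sets that rose (up) or fell (down) relative to the gene at p of 0.001 or less. Red lies above blue throughout IGF1R, and red and blue meet at the GRB10 probe sets 3050566 and 3050570.

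Outside these, *IRS2* probe sets 3525266 (1.38 ± 0.18) and 3525242 (1.23 ± 0.22), *IGFBP3* probe set 3049297 (0.84 ± 0.15) and *GRB14* probe set 2584757 (0.83 ± 0.14) rose relative to their genes. With Iter-PLIER the differences of the *IRS2* probe sets were 0.03 and -0.44 and that of the *IGFBP3* probe set was 0.07, none of which passed in the same direction. The *GRB14* probe set kept its call there (1.56). With RMA it averaged 7.80 after R1881 and 7.37 in steroid-deplete medium, far above the dim *GRB14* cluster (4.66 and 5.07). It lay within 5-fold of the gene only in steroid-deplete medium, and dropped out of the test without steroid-deplete replicate 2. Whether this probe set reads *GRB14* RNA alone was not tested. Its own values were 7.76, 7.83, 7.79 and 7.82 after R1881, against 7.47, 7.08, 7.29 and 7.65 in steroid-deplete medium, so that every R1881 array lay above 7.65, the highest steroid-deplete value, but its own change of 0.43 ± 0.19 did not pass the test (adjusted p = 0.315, limma).

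A list of 51 further genes of the axis set these members in context. A cluster with a single symbol measured 40 of them, 5 were only in shared clusters, and 6 were not analysed here. Of the 40, limma called 1 higher and 0 lower, and at an adjusted p under 0.05 there were 5 higher and 7 lower, with a median log2 fold change of 0.01. These counts stand beside 1.94%, 2.04%, 10.5% and 19.8% of all clusters. At an unadjusted p under 0.05, 6 were higher and 10 lower, against 14% and 24.5% of all clusters. The methods' t-test also called 0 lower (1.85% of all clusters), while Iter-PLIER called 4 lower (5.67%) and the RMA values without steroid-deplete replicate 1 called 2 lower (2.4%). Among the ligands, *IGF1* did not pass the test at a low level (log2 fold change 0.06 ± 0.11, adjusted p = 0.746, limma), and *IGF2* was measured only in clusters shared with other genes. None of the 5 other binding protein genes passed, also not at an unadjusted p under 0.05 (limma).

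The called gene was *SOCS2*, a suppressor of cytokine signalling that restrains growth hormone receptor signals and has been placed among the brakes on the IGF1 receptor. It read 8.16, 7.99, 8.39 and 8.13 after R1881, against 6.18, 6.69, 6.12 and 6.46 in steroid-deplete medium. All R1881 arrays lay above all steroid-deplete arrays (log2 fold change 1.81 ± 0.13, adjusted p = 1.16e-07, limma). Of the other 11 brakes, *ENPP1*, which encodes a membrane protein that inhibits the insulin receptor, was lower (-0.93 ± 0.09, adjusted p = 4.55e-06, limma), and so was *MDM2*, a ubiquitin ligase gene (-0.55 ± 0.09, adjusted p = 0.000377, limma). Of the 12 brakes, 2 were higher and 3 lower at an adjusted p under 0.05, near the shares of all clusters (10.5% and 19.8%).

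Of 13 other substrate and adaptor genes measured, 2 were higher and 3 were lower, near the shares of all clusters (10.5% and 19.8%). *APPL1*, an adaptor that binds AKT, was lower (-0.95 ± 0.11, adjusted p = 1.98e-05, limma), as was *GAB1*, a docking protein gene (-0.87 ± 0.11, adjusted p = 2.94e-05, limma). *SHC1*, which encodes an adaptor that links receptors to RAS, was higher (0.53 ± 0.09, adjusted p = 0.000584, limma). *IDE*, the insulin-degrading enzyme gene, was higher (0.66 ± 0.10, adjusted p = 0.000167, limma), and *STC2*, which encodes an inhibitor of the protease that cleaves IGF binding proteins, was lower (-0.90 ± 0.12, adjusted p = 5.54e-05, limma). With Iter-PLIER *STC2* (-1.53), *APPL1* (-1.04) and *ENPP1* (-1.18) passed the limit of 2-fold.

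The genes whose profile over the 8 arrays was most like that of *IGF1R* were *PART1*, *INPP4B* and *PMEPA1*, with root mean square differences of 0.114, 0.120 and 0.139 log2 units after each gene had been centred on its mean. *PART1* is a prostate androgen-regulated transcript, *INPP4B* encodes a phosphoinositide phosphatase and *PMEPA1* a membrane protein. Those most like *GRB10* were *TLL1*, a metalloprotease gene, *COLCA1*, and *RNF144B*, a ubiquitin ligase gene, with differences of 0.0533, 0.0822 and 0.103. The levels of *TLL1*, the closest, averaged 8.24 after R1881 and 10.72 in steroid-deplete medium. With 8 arrays in 2 groups this measure mostly compares the sizes of the treatment differences.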

How the data were processed

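RNA of 8 LNCaP samples was hybridised to Human Exon 1.0 ST Arrays, and the authors summarised each array in 4 ways. Deposited gene-level and exon-level RMA values are on the log2 scale, made by the authors with core probe sets at gene level, quantile normalisation and antigenomic background probes. The other deposited values are linear intensity by Iter-PLIER, which at exon level goes by the labels only, as PLIER is what the methods give there. In the submitters' processing notes hg18, RMA and PLIER stand without versions. Arrays were grouped by labelled treatment. RMA values were compared with limma 3.58.1 in R 4.3.3 (Benjamini-Hochberg over all features), with data.table (version 1.17.8) and matrixStats 1.5.0, and figures were drawn with matplotlib 3.10.9. Iter-PLIER values were logged after adding 16, or 1 alternatively.

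Where a symbol had several clusters, the brightest stood for the gene. Symbols came from the platform annotation, with older ones updated (20 at gene level and 33730 at probe set level). For probe sets relative to the gene, the gene could change by at most 10-fold, and the probe set mean had to lie within 5-fold of the gene and at or above the median of all probe sets in at least 1 treatment. The detection calls named in the methods were not used here. Members and gene lists were chosen with earlier results of these data known. Named were all members, called pathway genes and up to 3 per role past an adjusted p of 0.05, *KLK3*, the 3 genes most like the highest and lowest member, and per member extreme or called probe sets (at most 3 in each direction for the largest sets). Same-numbered arrays were not used as pairs. The fits and the permutation test were tested on simulated data. Alternatives were Iter-PLIER values, the methods' t-test, an intensity trend, filters on dim clusters, centring or quantile normalisation, a replicate block, other limits, another gene value (for *IGF1R* also its second cluster, chosen after seeing the data) and leaving out arrays.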

Additional observations from a re-analysis of the deposited data

Results flagged for a closer look

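Among 46 groups of 4 arrays, for the 23 clusters of members, of other genes of the axis past an adjusted p of 0.05 and of *KLK3*, 4 held an array far from the other 3 by Dixon's ratio. Chance gives such an array in about 1 of 20 groups. *GRB14* had it in both treatments, at 4.88 in R1881 replicate 4, against 4.57 to 4.62 in the other R1881 arrays, and at 5.27 in steroid-deplete replicate 4, against 4.97 to 5.02 in the other steroid-deplete arrays. *APPL1* was low in R1881 replicate 4 (7.52, against 7.95 to 7.99 in the other R1881 arrays). *PTPN1*, a phosphatase gene outside the rule for named genes, was high in R1881 replicate 3 (8.41, against 8.30 to 8.31 in the other R1881 arrays). R1881 replicate 4, which holds 2 of the 4 values, is also an array that lay apart on the second component. Leaving out single arrays kept the change of *GRB14* between -0.48 and -0.34 and that of *APPL1* between -1.02 and -0.84, and that of *PTPN1* between 0.44 and 0.48.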

How the results depend on the processing

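No alternative turned the sign of a called member, and of 191 fits of single members 6 moved across an adjusted p of 0.05, in *INSR*, *IRS1* and *IGF2R*. The counts of called members became 3 higher and 2 lower with Iter-PLIER (16 or 1 added), and 3 higher with no fold limit or a limit of 1.5-fold. The other genes of the axis called higher became 4 with no fold limit and 2 at 1.5-fold, and those called lower became 4 with Iter-PLIER (16 or 1 added) or at 1.5-fold and 6 with no fold limit. Iter-PLIER with 16 added called 5.67% of all clusters lower. The shares of all clusters at the looser fold limits were not counted here, so the counts at those limits are no result about the axis. Leaving out 1 array at a time gave 0 to 2 called lower, and the 2, *APPL1* and *ENPP1*, came without steroid-deplete replicate 1. Probe sets higher relative to the gene became 4 with the gene limited to 2-fold, 5 without R1881 replicate 4 and steroid-deplete replicate 1, and 7 to 10 without single arrays, and those lower became 18 with Iter-PLIER, 0 with the gene limited to 2-fold and 6 to 9 without single arrays. For these relative counts the shares of all probe sets in the same settings were not counted here. Without R1881 replicate 4 and steroid-deplete replicate 1 the differences of changes were 3.08 (*IGF1R* and *INSR*), -0.74 (*IRS1* and *IRS2*), -1.93 (*GRB10* and *GRB14*), -0.49 (*IGFBP2* and *IGFBP5*) and 0.76 (*IGFBP3* and *IGFBP5*), each at p = 0.1 in the exact permutation test, the smallest that 3 against 3 allows. Leaving out 1 array gave 2.99 to 3.07 for *IGF1R* and *INSR*, -2.13 to -1.93 for *GRB10* and *GRB14*, -0.76 to -0.53 for *IRS1* and *IRS2*, -0.62 to -0.45 for *IGFBP2* and *IGFBP5*, and 0.53 to 0.76 for *IGFBP3* and *IGFBP5*, with exact permutation p up to 0.0571. As replicate block, the exact sign-flip test of same-numbered pairs kept the differences at 3.04, -0.65, -2.06, -0.53 and 0.65 with p = 0.125, the smallest it can give. Same-numbered arrays showed no clear shared deviation, with correlations of deviations from -0.10 to 0.10, and 1 of 8 arrays correlated best with its own number. These correlations cannot show whether same-numbered samples were cultured or processed together. The replicate block changed no member call at gene level and gave 9 probe sets higher and 7 lower relative to the gene, among them 14 of the 17 found without it, while *IGF1R* 3610887, *GRB14* 2584757 and *GRB10* 3050463 no longer passed. With the *IGF1R* probe sets numbered after its second cluster set against that cluster, an alternative chosen after seeing the data, the counts were 8 and 9. Over all clusters, 317 were called higher and 333 lower (48.8% higher), against 372 and 259 (59.0% higher) with arrays centred on their medians, which shifted the median of all clusters to 0.10, and 444 and 924 (32.5% higher) with Iter-PLIER. The number of arrays limits the precision.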

Other observations

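The RefSeq gene order gave 20 neighbours of the 10 genes, of which 12 had a cluster with a single symbol, and they were examined after the values of the members had been seen. The members *IGFBP2* and *IGFBP5* are among these 12, each as the neighbour of the other. Of the 12, 0 were called higher and 1 lower, against 1.94% and 2.04% of all clusters. The neighbour called was the gene next to *GRB10* on chromosome 7, *DDC*, which encodes aromatic L-amino acid decarboxylase. *DDC* read 7.09, 7.03, 6.82 and 6.98 after R1881, against 8.89, 9.11, 9.25 and 8.81 in steroid-deplete medium, with no overlap (log2 fold change -2.03 ± 0.11, adjusted p = 5.77e-09, limma). On the other side of *GRB10*, *COBL*, an actin nucleator gene, was lower by less than 2-fold (-0.78 ± 0.10, adjusted p = 4.05e-05, limma). The only measured neighbour of *IGF1R*, *ARRDC4*, did not pass the test (-0.16 ± 0.11, adjusted p = 0.321, limma). *RPL37A*, a ribosomal protein gene next to *IGFBP2*, was lower (-0.65 ± 0.12, adjusted p = 0.000791, limma). Over all clusters, 19.8% were lower at an adjusted p under 0.05 (limma).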
